A study of Drosophila melanogaster with 9 samples.

Results

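The comparison set Drosophila S2R+ cells that expressed the Hox protein Ultrabithorax with the homeodomain change N51A (Ubx-N51A) against the same cells expressing the wild-type protein (Ubx-WT). It set 6 of the 9 libraries of the study against each other, 3 per protein, chosen by their labels alone. The other 3 libraries came from cells with a nuclear green fluorescent protein (GFP). They entered the fit, where they share in the estimate of the spread, and their levels are given beside those of both Ubx groups. S2R+ is an embryonic fly line with haemocyte-like properties. Each protein was produced through the Gal4-UAS system with an actin promoter, so the groups share the line, the driver and the overexpression. The labels' protocols describe Ubx with a myc tag, whereas the sample characteristics describe a GFP tag, and this was not settled here. Polyadenylated RNA was read as 75 bp single ends from directional libraries. Of 4 independent replicates made per group, 3 were kept after a principal component analysis, which can narrow the spread on which p-values rest.

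Ubx is a transcription factor that assigns identity to segments of the fly. Like other homeodomain proteins it places its recognition helix in the major groove of DNA, and the asparagine at the position named in N51A is shared by nearly all homeodomains, where it contacts an adenine. Replacing it with alanine is a usual way to weaken DNA binding by a homeodomain. The title of the study names RNA, splicing and RNA polymerase II as the partners of Ubx it is about. The deposited counts are per gene and say nothing of splice forms, so the comparison here is of transcript amounts.

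Reads in genes numbered 41138781 to 66828787 in the Ubx-WT libraries and 30967554 to 64221439 in the Ubx-N51A libraries. Mitochondrial genome transcripts made up 2.77%, 4.91% and 3.34% of them in Ubx-WT cells against 5.87%, 4.12% and 4.11% in Ubx-N51A cells, and the groups overlap in that share. Replicates of a group differed beyond counting noise (chi-square over its degrees of freedom, 6.72 to 55.4). Of 14 haemocyte markers 13 were tested, and their summed level was 1698.0 to 1795.6 CPM in the Ubx-WT and 1728.1 to 1784.4 CPM in the Ubx-N51A libraries, while NimC1, a phagocytosis receptor that defines plasmatocytes, stayed under 0.5 CPM in all 6. CPM are reads scaled to the size of each library, and 1 CPM was 31 reads in the shallowest one. A word on sorting in the deposited file names differs between the groups. What it refers to is not stated, and a difference in how cells were sorted cannot be told apart from the proteins.

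Ubx was transcribed at a high level in both groups. The gene (FBgn0003944; 3R, 16656623 to 16734426, minus strand, BDGP6) stood at 1708.8, 1384.4 and 1497.6 CPM in the Ubx-WT libraries and at 1721.0, 2053.3 and 2274.8 CPM in the Ubx-N51A libraries, against at most 1.74 CPM with GFP. Each Ubx-N51A library was above each Ubx-WT library, although the nearest values, 1708.8 and 1721.0 CPM, were close. The log2 fold change was 0.40 (SE 0.182), with an adjusted p of 0.287 (edgeR quasi-likelihood test, Benjamini-Hochberg over all genes tested), which did not pass. With no filter on low counts the adjusted p was 0.0311. The part of this difference in the results that follow was not tested, and the counts do not separate the introduced Ubx from the cells' own.

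Genes that passed the test mostly stood lower with Ubx-N51A than with Ubx-WT, and the large differences were nearly all in that direction. Of 9207 genes tested, 473 (5.14%) passed at an adjusted p under 0.05. Of these 360 (3.91% of the genes tested) were lower with Ubx-N51A and 113 (1.23%) were higher. At an unadjusted p under 0.05 there were 1566 genes (17%). Among the 208 called genes that differed by at least 2-fold (2.26%), 198 (2.15%) were lower and 10 (0.109%) were higher. The median size of the difference on the log2 scale was 1.15 for the lower genes and 0.25 for the higher genes, against 0.07 over all genes tested. Of the lower genes 172 had under 2 CPM in Ubx-WT cells and 113 had under 1 CPM. Among all 1630 genes with a mean under 1 CPM over both Ubx groups, 9.02% were called lower. The median log2 fold change of these 1630 genes was -0.153. In bulk RNA a gene that is lower in every cell and a gene that is expressed in fewer cells cannot be told apart.

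The split of higher and lower calls moved with exon length. After a correction for the length trend described further on, 42 genes were higher (0.466% of 9018 genes) and 346 were lower (3.84%). Of the uncorrected calls with a known exon length, 327 of 357 lower genes and 39 of 108 higher genes were among these. Leaving out a library changed the counts as well. The higher genes numbered 54 without Ubx-WT replicate 2, 60 without Ubx-WT replicate 3, 53 without Ubx-N51A replicate 1 and 48 without Ubx-N51A replicate 2, and all calls together numbered 302 without Ubx-WT replicate 3. A set of 200 lower and 35 higher genes was called without each of the 6 libraries in turn.

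**Figure D1:**
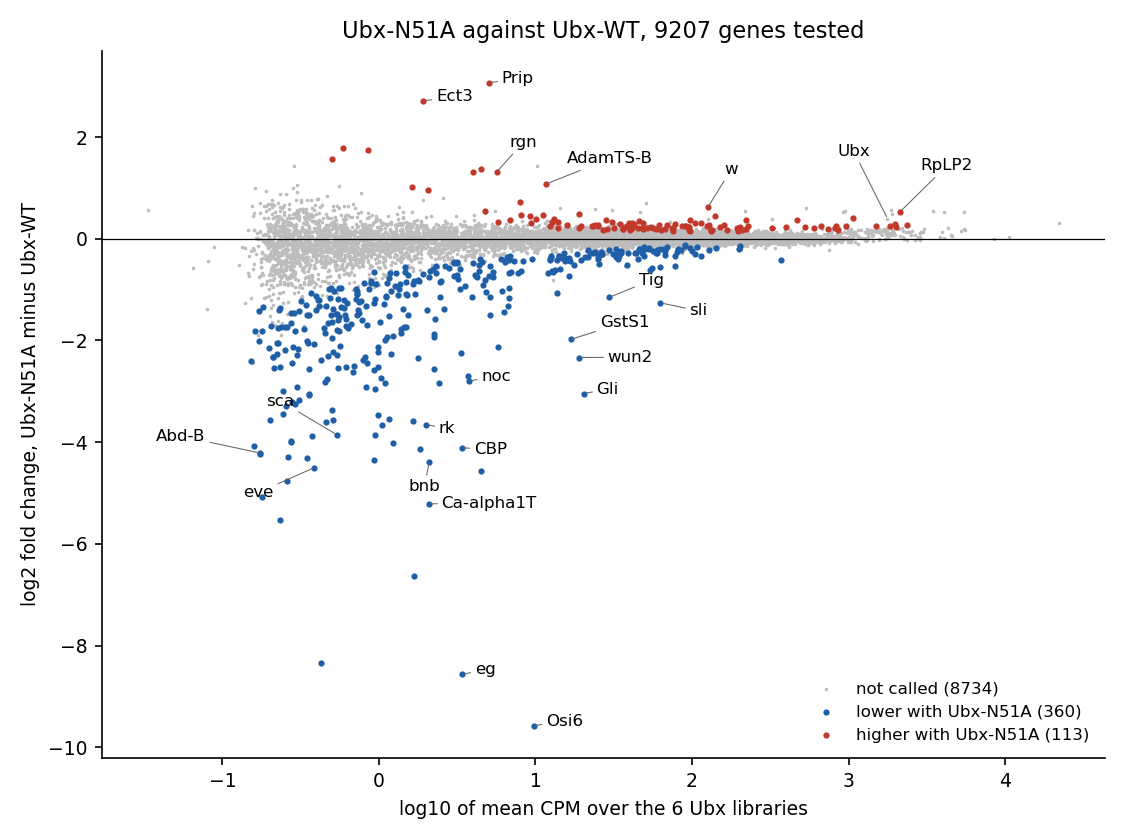
Log2 fold change (Ubx-N51A minus Ubx-WT) of the 9207 genes tested against the log10 of their mean CPM over the 6 Ubx libraries. Each point is a gene, with the 360 called lower in blue, the 113 called higher in red and the rest in grey; the blue points reach -9.58 (Osi6, a fitted value that depends on the prior count), while the red points reach 3.06 (Prip).

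The gene with the largest fall was Osi6, which encodes a transmembrane protein of the insect Osiris family (FBgn0027527; 3R, 6234708 to 6237181). It stood at 20.5, 18.1 and 19.9 CPM in Ubx-WT cells and at 0, 0.0538 and 0.0157 CPM in Ubx-N51A cells. The latter is 3 reads in all against 3132, a ratio of 881 (exact 95% interval 301 to 4276.1, counting error only). The GFP libraries were as low as the Ubx-N51A libraries, at 0, 0 and 0.039 CPM. Osi6 lies in a cluster of related genes, and 2 of the 22 Osiris genes in the files passed the filter on low counts. Osi19 stood at 6.12 to 7.34 CPM in Ubx-WT cells and 6.42 to 6.86 CPM in Ubx-N51A cells (log2 fold change -0.05, adjusted p = 0.831 by edgeR). The untested Osi12 had 5, 7 and 5 reads in Ubx-WT cells and 0 reads in each Ubx-N51A library.

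The same near-absence was seen for eg, which encodes a nuclear receptor-like zinc finger factor known from neuroblasts (3L, 21808703 to 21817600). It had 6.87, 6.74 and 6.77 CPM in Ubx-WT cells and 0, 0.0538 and 0 CPM in Ubx-N51A cells, or 1091 against 2 reads, a ratio of 461 (127 to 3807.5). CG17290, a gene with only a number, went from 3.23, 3.53 and 3.17 CPM to 0.0666, 0 and 0.0313 CPM. Together with Osi6 these were the 3 genes with at least 1 CPM in each Ubx-WT library and under 0.1 CPM in each Ubx-N51A library. No gene (0 of 9207) showed the reverse. The numbered gene CG15482 went from 8.87, 8.44 and 8.44 CPM in Ubx-WT cells to 0.433, 0.296 and 0.36 CPM in Ubx-N51A cells (log2 fold change -4.57).

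Calcium genes were among the largest falls. Ca-alpha1T, the pore subunit of a T-type voltage-gated calcium channel (X, 6104085 to 6192483), had 4.44, 3.71 and 4.04 CPM in Ubx-WT cells and 0.166, 0.0538 and 0.11 CPM in Ubx-N51A cells. Its log2 fold change came to -5.21 (SE 0.249, edgeR adjusted p = 3.15e-08). CBP, a calcium-binding protein (X, 7337352 to 7342731), had 6.42, 5.84 and 6.96 CPM against 0.2, 0.35 and 0.47 CPM. In both genes the Ubx-N51A libraries lay far below the Ubx-WT libraries and overlapped the GFP libraries, which ranged from 0.102 to 0.227 CPM for Ca-alpha1T and from 0.205 to 0.351 CPM for CBP. Of the 14 calcium channel and calcium-binding genes tested, 3 were lower (21.4%, against 3.91% of all genes tested) and 0 higher, with a median log2 fold change of -0.142. The third was RyR, the ryanodine receptor, with 0.856 to 0.937 CPM against 0.2 to 0.538 CPM, whose call was lost without Ubx-N51A replicate 3 (adjusted p = 0.0633). The other 11 did not pass.

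The bursicon receptor gene rk, a leucine-rich G protein-coupled receptor that acts in cuticle hardening (2L, 13982743 to 14001248), had 3.61, 4.03 and 3.5 CPM in Ubx-WT cells and 0.299, 0.376 and 0.235 CPM in Ubx-N51A cells. Its log2 fold change came to -3.66 (SE 0.189, edgeR adjusted p = 6.69e-08). Here the Ubx-N51A libraries stayed above the GFP libraries, which had 0.0682, 0.0764 and 0.117 CPM. The zinc finger gene noc (2L, 14490859 to 14494019) took a like middle position, with 7.01, 6.12 and 6.58 CPM for Ubx-WT, 0.932, 0.887 and 0.987 CPM for Ubx-N51A and 0.195 to 0.306 CPM for GFP. The groups did not overlap in either gene.

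Gli showed the largest fall among genes above 30 CPM in Ubx-WT cells. It encodes Gliotactin, a cholinesterase-like membrane protein of the tricellular septate junction (2L, 15756002 to 15762758). Its level was 37.7, 35.4 and 36.6 CPM in Ubx-WT cells and 3.96, 4.6 and 4.6 CPM in Ubx-N51A cells. The mean of 36.5 ± 1.16 CPM was thus set against 4.39 ± 0.37 CPM (SD, n = 3), or -3.04 on the log2 scale (SE 0.0751, edgeR adjusted p = 6.61e-11). The GFP libraries, at 3.95, 4.69 and 4.54 CPM, covered the same range as those with Ubx-N51A.

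The lipid phosphate phosphatase gene wun2, known from germ cell migration (2R, 9414342 to 9417846), had a different order of the 3 groups. It stood at 31.2, 30.7 and 32.6 CPM in Ubx-WT cells, at 5.42, 6.51 and 6.58 CPM in Ubx-N51A cells and at 20, 12.8 and 13.9 CPM with GFP. The Ubx-N51A libraries were thus the lowest, with a log2 fold change of -2.34 against Ubx-WT (SE 0.139; edgeR adjusted p = 2.98e-07) and -1.32 against GFP (adjusted p = 0.00013 in the same edgeR fit). In that fit 8.09% of genes passed between Ubx-N51A and GFP and 16.6% between Ubx-WT and GFP. GstS1, the sigma-class glutathione S-transferase (2R, 17093246 to 17099501), had 26.7, 26.6 and 27.2 CPM in Ubx-WT cells and 6.49, 6.48 and 7.27 CPM in Ubx-N51A cells, or -1.98 on the log2 scale (SE 0.0776, edgeR adjusted p = 4.42e-09). Its GFP libraries, at 4.93 to 6.07 CPM, lay just under those with Ubx-N51A.

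**Figure D2:**
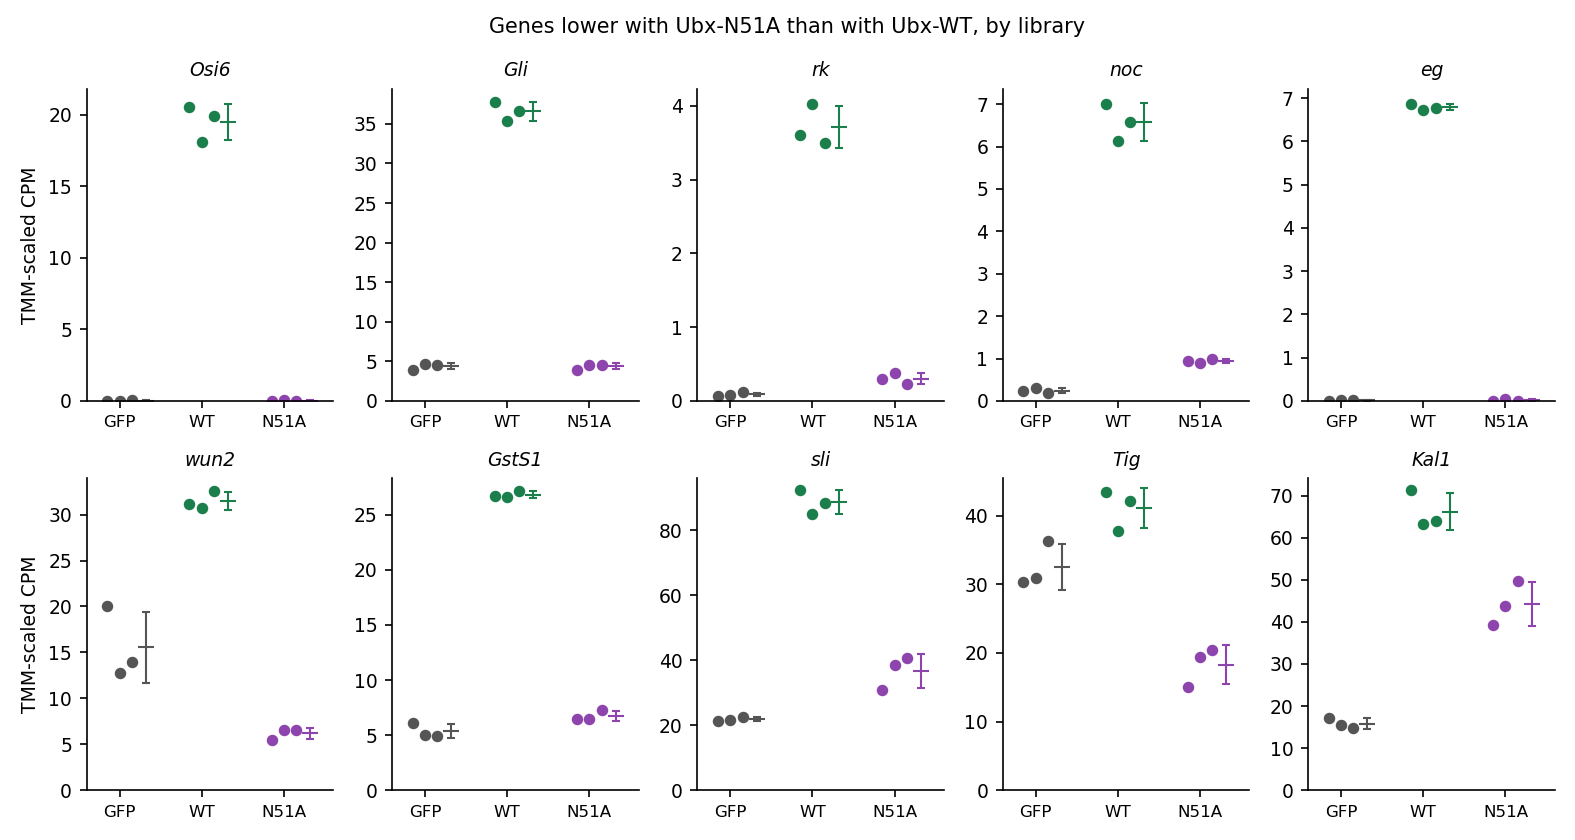
TMM-scaled CPM of 10 genes lower with Ubx-N51A, in each library of the GFP (grey), Ubx-WT (green) and Ubx-N51A (purple) groups, with a bar for the mean and SD (n = 3). In each panel the Ubx-WT libraries are the highest; the Ubx-N51A libraries overlap GFP for Osi6, eg and Gli, lie above it for rk, noc, GstS1, sli and Kal1, and lie below it for wun2 and Tig.

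The 15 largest falls among named genes of at least 2 CPM also took in bnb (log2 fold change -4.39), the chromatin factor gene corto (-4.02), the cytochrome P450 gene Cyp305a1 (-3.58), the POU homeobox gene pdm3 (-3.55), the noncoding RNA gene lncRNA:noe (-2.70) and Obp44a, of the odorant-binding protein family (-2.34). All 15 were called in the fit corrected for exon length and without each library in turn. The Ubx-N51A libraries overlapped the GFP libraries in 11 of the 15, the exceptions being rk, noc, wun2 and GstS1. The Ubx-WT and GFP libraries overlapped in 0 of the 15. These genes were chosen for a high level with Ubx-WT relative to Ubx-N51A, so both counts are partly set by the choice. Over all genes tested, the groups did not overlap for 29.4% between Ubx-N51A and GFP and for 35.4% between Ubx-WT and GFP, and both of these contrasts share the GFP libraries. Most genes thus overlapped between Ubx-N51A and GFP, and 11 of 15 is near their share.

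In the homeobox list outside the Hox genes and the list of other DNA-binding factors, all called genes were lower with Ubx-N51A. After the length correction 1 homeobox gene was higher. E(spl)m3-HLH, a transcription factor gene counted in the Notch list, was higher as fitted (0.33). Of 19 homeobox genes 4 were lower and 0 higher (median log2 fold change -0.033), and of 44 other DNA-binding factors 8 were lower and 0 higher (-0.033), against medians of 0.006 and shares of 3.91% and 1.23% over all genes. The pair-rule homeobox gene eve had 0.618, 0.818 and 0.788 CPM in Ubx-WT cells and 0.0269 to 0.0333 CPM in Ubx-N51A cells (-4.50), with the GFP libraries at 0.0909 to 0.127 CPM. The neural homeobox gene vnd differed by -2.26. Among the other factors, besides eg and noc, the T-box gene bi differed by -2.91, elB, the partner of noc in the elbow-no ocelli complex, by -2.45, Sox15 by -1.75, the gap gene gt by -1.65, the BTB factor gene bab2 by -0.97 and the odd-skipped family gene bowl by -0.65. Several of these stood near or under 1 CPM, as with bi at 0.452 to 0.578 CPM in Ubx-WT cells. The call of zfh2 (-0.53) was lost without any of 5 libraries, up to an adjusted p of 0.145, with Ubx-WT replicate 1 the exception.

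Of the 8 Hox genes, Ubx and Abd-B passed the filter on low counts, and the others had at most 3 reads per library. Abd-B, the most posterior of them, had 11, 23 and 19 reads in Ubx-WT cells against 0, 2 and 0 in Ubx-N51A cells, a ratio of summed reads of 22.4 (5.9 to 190). This amounts to 0.261 to 0.459 CPM with Ubx-WT. Of the Hox cofactor genes, exd, which encodes the homeodomain partner of Hox proteins, had 201, 241 and 215 CPM against 244, 208 and 214 CPM and did not pass (0.02, adjusted p = 0.929). The zinc finger gene tio, related to tsh, had 0.817 to 0.856 CPM against 0.188 to 0.345 CPM and was lower (-1.53, edgeR adjusted p = 0.00614). Of 8 textbook targets of Ubx tested, 1 was lower (12.5%) and 0 higher, against 3.91% and 1.23% of all genes tested. It was sca, a secreted fibrinogen-like protein of the Notch pathway, with 0.879, 1.16 and 1.02 CPM against 0.0333, 0.0538 and 0.094 CPM (-3.86, edgeR adjusted p = 1.31e-05). The 95% interval of the log2 fold change ran from -0.21 to 0.23 for rho, from -0.02 to 0.17 for ct and, at lower depth, from -1.56 to 0.15 for dpp. After the length correction ct passed as higher (0.13, adjusted p = 0.0425).

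Septate junction genes were lower as far as they passed the test. The septate junction is the barrier between epithelial cells of insects, and S2R+ cells express many of its genes. Of 32 genes tested 9 were lower (28.1%, against 3.91% of all genes) and 0 higher, with a median log2 fold change of -0.099, and for 13 of them each Ubx-N51A library lay below each Ubx-WT library, a separation in either direction that 22.8% of all genes tested showed. The counts were the same after the correction for exon length. Beside Gli, the differences were small, from -0.34 for the claudin gene sinu and -0.31 for udt to -0.22 for pasi2. Lac, an immunoglobulin-domain protein of the junction, had 64.3, 68.9 and 64.4 CPM in Ubx-WT cells and 52.4, 56.7 and 53.1 CPM in Ubx-N51A cells (-0.28, edgeR adjusted p = 0.00866). Tsf2, the melanotransferrin of the junction, differed by -0.26. Gli, udt, Lac and Tsf2 were called without each library in turn, and between 6 and 8 members were called when 1 library was left out: the call of sinu was lost without Ubx-N51A replicate 3 (adjusted p = 0.0639) and that of Cont without Ubx-WT replicate 3 (0.0664), while the claudin gene pck, M6 and pasi2 lost theirs without 2 to 4 libraries each (up to 0.097, 0.0581 and 0.0715).

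Genes of the extracellular matrix and of adhesion followed. Tig, the integrin ligand tiggrin (2L, 6415179 to 6423310), had 43.4, 37.8 and 42.1 CPM in Ubx-WT cells and 15.1, 19.4 and 20.4 CPM in Ubx-N51A cells, or -1.15 on the log2 scale (SE 0.1, edgeR adjusted p = 1.07e-05). The Ubx-N51A libraries were also below the GFP libraries, at 30.3, 31.0 and 36.4 CPM. Ndg, the basement membrane protein nidogen, went from 5.35, 5.62 and 5.35 CPM to 2.03, 2.37 and 2.83 CPM (-1.14). The integrin alpha subunit gene if had 52.7, 58.9 and 54.0 CPM against 41.3, 46.5 and 43.1 CPM (-0.34). Of 26 integrin, laminin and basement membrane genes 5 were lower (19.2%, against 3.91% of all genes) and 0 higher, with a median of -0.036; the other 2 were ItgaPS5 (-0.68; adjusted p = 0.0543 without Ubx-N51A replicate 1) and the matrix metalloprotease gene Mmp1 (-0.38), whose call was lost without any of 5 libraries (up to 0.162) and after the length correction (0.0681). Of 25 cell adhesion genes 3 were lower (12%) and 0 higher. They were tei (-1.73), the fasciclin gene Fas2, with 4.61, 4.57 and 4.78 CPM against 2.13, 2.37 and 2.76 CPM (-0.92), and bdl (-0.76), the last called in 1 of 6 fits without a library (adjusted p up to 0.119).

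Axon guidance genes moved both ways. sli, which encodes the ligand of Robo receptors (2R, 15869495 to 15922118), had 92.4, 85.1 and 88.4 CPM in Ubx-WT cells and 30.9, 38.6 and 40.8 CPM in Ubx-N51A cells, or -1.26 on the log2 scale (SE 0.0788, edgeR adjusted p = 5.21e-07). The GFP libraries were lower still, at 21.2 to 22.5 CPM. NetB, a netrin, was lower as well (-0.64; adjusted p = 0.0539 without Ubx-N51A replicate 3). The neighbouring genes otk and otk2, which encode receptor-like proteins of the PTK7 family that act in Wnt signalling, were higher with Ubx-N51A: otk had 39.3, 42.1 and 40.1 CPM against 47.8, 53.5 and 53.8 CPM (0.36, edgeR adjusted p = 0.00151), and otk2 rose by 0.55, a call lost without Ubx-WT replicate 3 or Ubx-N51A replicate 2 or 3 (up to 0.0635). In both, Ubx-WT lay between GFP and Ubx-N51A. In all, 2 of 23 guidance genes were higher and 2 lower (8.7% each, against 1.23% and 3.91% of all genes), with a median of -0.056. Kal1, the anosmin homologue, was counted with the FGF genes, of which 2 of 6 were lower. It had 71.3, 63.3 and 64.0 CPM in Ubx-WT cells, 39.2, 43.7 and 49.7 CPM in Ubx-N51A cells (-0.57, edgeR adjusted p = 0.000718) and 14.7 to 17.2 CPM with GFP. The other was stumps, the adaptor of FGF receptors (-1.11).

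In the signalling lists few genes passed, and their counts are to be read against the 3.91% of all genes called lower and the 1.23% called higher. In the Wingless pathway 3 of 20 were lower (15%) and 0 higher, all 3 of them receptors or co-receptors. The Wingless receptor gene fz2 had 17.2, 18.3 and 18 CPM in Ubx-WT cells and 13.3, 12.4 and 13.7 CPM in Ubx-N51A cells (-0.44, edgeR adjusted p = 0.000967). The co-receptor gene arr differed by -0.20 (adjusted p = 0.0536 without Ubx-N51A replicate 2), and fz by -0.42, called in 1 of 6 fits without a library (up to 0.135). In the Dpp pathway 4 of 22 were lower (18.2%) and 1 higher (4.55%). The BMP type II receptor gene wit (-0.66), the antagonist gene sog (-0.48), the secreted modulator gene magu (-0.43) and the BMP-binding cv-2 (-0.30) were lower, and the glypican gene dally was higher (0.38). These 5 calls changed with single libraries: with 1 library left out, between 0 and 3 members were called lower, cv-2 lost its call without any of the 6 (up to 0.196), and dally lost it without Ubx-N51A replicate 2 or 3 (up to 0.0953). In the EGF receptor pathway 1 of 21 was lower (4.76%, near the share of all genes), the neuregulin-like ligand gene vn, with 3.76, 5.03 and 4.3 CPM against 2.16, 2.23 and 2.22 CPM (-0.98). In the Toll pathway 2 of 15 were lower (13.3%), the protease gene grass (-0.37) and Toll-7 (-1.09), the latter lost without Ubx-WT replicate 2 or 3 (up to 0.0694).

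Other lists gave no call between the proteins. In the JAK-STAT list 0 of 14 passed by edgeR, with 2 at an unadjusted p under 0.05 and 1 called lower by DESeq2. Its feedback inhibitor gene Socs36E had 53.3, 52.6 and 54.3 CPM against 49.2, 52.8 and 56.3 CPM, with overlapping groups. Of 11 antimicrobial peptide genes 0 passed by edgeR or DESeq2 (1 at an unadjusted p under 0.05), and the same holds for 0 of 21 Imd and peptidoglycan recognition genes (2). Of 21 endoplasmic reticulum chaperone genes 0 passed by edgeR (4 at an unadjusted p under 0.05) and 1 was higher by DESeq2. Of 19 heat shock genes 0 passed by edgeR (4 at an unadjusted p under 0.05) and 1 was lower by DESeq2.

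**Figure D3:**
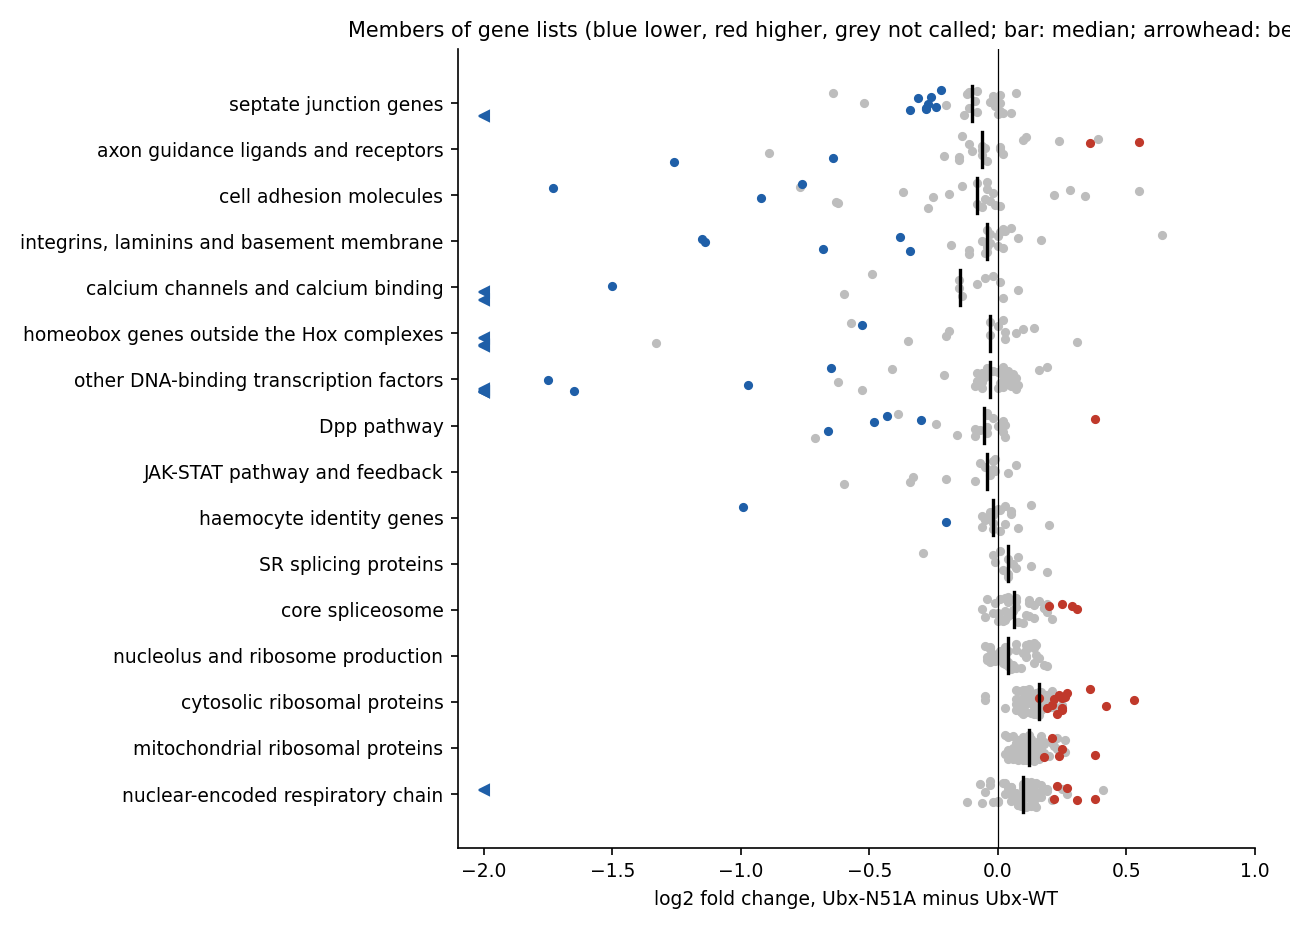
Log2 fold change (Ubx-N51A minus Ubx-WT) of the tested members of 16 gene lists, 1 point per gene, with called members in blue (lower) or red (higher), the list's median as a black bar and arrowheads for members below -2. Called members of the septate junction list (9 of 32) and of the transcription factor lists lie to the left, those of the guidance list (2 and 2) on both sides, and those of the cytosolic ribosomal protein list (14 of 82) to the right.

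Few genes were at least 2-fold higher with Ubx-N51A. The largest rise was in Prip, an aquaporin gene (FBgn0033635; 2R, 11436243 to 11442216). It had 1.28, 0.977 and 1.02 CPM in Ubx-WT cells and 8.49, 8.93 and 9.68 CPM in Ubx-N51A cells, or 3.06 on the log2 scale (SE 0.118, edgeR adjusted p = 4.42e-09). The GFP libraries held the lowest level, 0.357 to 0.39 CPM, and Ubx-WT lay between. The other aquaporin gene tested, bib, had 0.248 to 0.309 CPM in Ubx-WT cells and 0.0807 to 0.166 CPM in Ubx-N51A cells and did not pass (-1.12, adjusted p = 0.139). Ect3, a beta-galactosidase gene (3R, 11999278 to 12003516), had 0.475, 0.578 and 0.496 CPM in Ubx-WT cells and 2.83, 3.07 and 4.1 CPM in Ubx-N51A cells (2.71, SE 0.213; edgeR adjusted p = 4.18e-06). For Ect3 the Ubx-WT libraries overlapped the GFP libraries, at 0.371 to 0.688 CPM.

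Further rises were smaller. The numbered gene CG10764 had 2.26, 2.85 and 2.33 CPM in Ubx-WT cells and 6.79, 6.24 and 6.31 CPM in Ubx-N51A cells (1.37, edgeR adjusted p = 0.00012). CG15365, also with only a number, rose by 0.72. The gene rgn (3L, 21382501 to 21424416) had 3.16, 3.17 and 3.41 CPM in Ubx-WT cells and 7.75, 7.99 and 8.5 CPM in Ubx-N51A cells (1.31, SE 0.0893; edgeR adjusted p = 9.59e-07). AdamTS-B, a secreted metalloprotease gene (X, 5698557 to 5708633), had 7.27, 7.66 and 7.69 CPM against 12.6, 17.3 and 17.5 CPM (1.08, SE 0.108; edgeR adjusted p = 3.54e-05). In both the Ubx-WT libraries stood just above the GFP libraries, at most 2.91 CPM for rgn and 7.06 CPM for AdamTS-B. The midline glia gene wrapper, an immunoglobulin-domain protein, rose from 1.16, 1.14 and 0.992 CPM to 1.96, 1.88 and 2.63 CPM (1.01). The other 2 glial markers did not pass or were not tested, and the glial determinant repo was under 0.5 CPM in all 6 libraries. The eye pigment transporter gene w went from 107, 93.7 and 98.3 CPM to 124, 164 and 170 CPM (0.62) and was higher than either in the GFP libraries, at 194, 206 and 243 CPM. hoe1 (0.96), SP1173 (0.45) and RapGAP1 (0.47), a GTPase-activating protein for Rap1, completed this group, and each lost its call without 2 to 4 of the libraries (up to 0.0635, 0.0891 and 0.134).

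**Figure D4:**
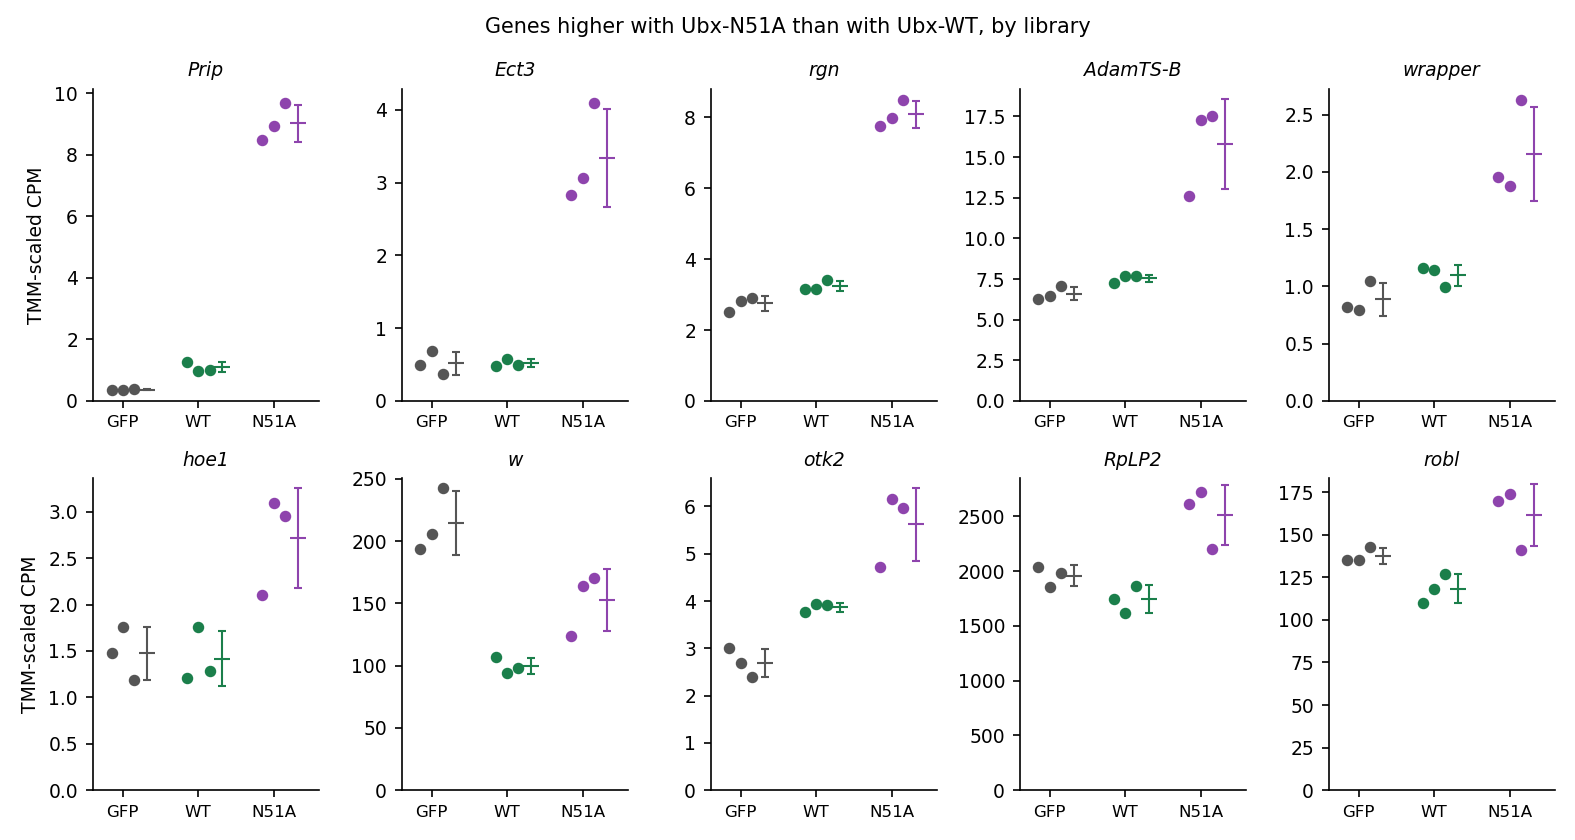
TMM-scaled CPM of 10 genes higher with Ubx-N51A, in each library of the GFP (grey), Ubx-WT (green) and Ubx-N51A (purple) groups, with a bar for the mean and SD (n = 3). The Ubx-N51A libraries lie above all Ubx-WT libraries in each panel, and the GFP libraries are lowest for Prip, rgn, AdamTS-B and otk2 and highest for w.

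Other rises were in short, strongly transcribed genes. The acidic ribosomal stalk protein gene RpLP2 had 1748.5, 1614.0 and 1867.2 CPM in Ubx-WT cells and 2614.8, 2721.1 and 2197.0 CPM in Ubx-N51A cells (0.53, SE 0.0798; edgeR adjusted p = 0.00126). RpL36 rose by 0.42, RpS9 by 0.36, the dynein light chain gene robl by 0.44 and ND-B14.5B, a subunit of respiratory complex I, by 0.38. All of these kept a call after the length correction, with smaller values, such as 0.38 for RpLP2 and 0.29 for robl. Their summed exon lengths ran from 527 bases for robl to 1018 for RpS9, against a median of 2005 over all genes tested. The GFP libraries overlapped Ubx-WT for RpLP2 (1851.3 to 2033.6 CPM) and ND-B14.5B. They overlapped Ubx-N51A for robl and for RpS9 (477 to 515 CPM), where Ubx-WT was the lowest group. For RpL36 they lay between the Ubx groups.

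As a list, the cytosolic ribosomal protein genes were higher in 14 of 82 cases (17.1%, against 1.23% of all genes tested) and lower in 0, with a median log2 fold change of 0.159, and 80 of 82 values were above 0. Genes whose symbol starts with RpL or RpS, a set that differs slightly from the list, took 13.6%, 12.4% and 13.6% of reads in the Ubx-WT libraries. In the Ubx-N51A libraries they took 14.1%, 14.6% and 14.1%. In the GFP libraries these genes took 14.71%, 13.95% and 13.88%, which lay above Ubx-WT and overlapped Ubx-N51A. The mitochondrial ribosomal protein genes were higher in 5 of 70 cases (median 0.123), with mRpL27 at 0.38 and mRpL43 at 0.25. Of 69 nuclear-encoded respiratory chain genes 5 were higher (0.105), among them COX8 at 0.27, and 1 was lower, COX7AL, a low gene with 0.558 to 0.642 CPM against 0.0783 to 0.133 CPM (-2.57). These lists hold short genes, with a median exon length of 921, 783 and 888 bases. After the length correction the ribosomal list had 3 higher genes and a median of 0.052, the mitochondrial ribosomal list 1 and 0.019, and the respiratory chain 2 higher, 1 lower and 0.004. With 1 library left out the higher calls numbered 5 to 12 in the ribosomal, 1 to 7 in the mitochondrial ribosomal and 3 to 7 in the respiratory list. DESeq2 called 26 of the cytosolic ribosomal protein genes higher. Of the 16 transcripts of the mitochondrial genome 0 passed by edgeR or DESeq2 (5 at an unadjusted p under 0.05), with a median of 0.536 and the groups not overlapping for 1 of them, against 22.8% of all genes.

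The trend with exon length was measured in genes of at least 5 CPM and ran through all length classes of them. Among 6400 genes of at least 5 CPM, cut into 10 equal classes by summed exon length, the median log2 fold change fell step by step from 0.124 in the class of shortest genes (75 to 917 bases) to -0.039 in the class of longest genes (5957 to 71820 bases), a difference of -0.163. The shortest class held 47 higher and 1 lower call, and the longest held 1 and 27. Corrected for length, the medians were -0.008 and 0.006 in these classes, with 8 higher and 2 lower calls in the shortest and 3 and 18 in the longest. The correction was fitted on genes of at least 5 CPM and applied to all. Genes under 1 CPM, with a median exon length of 1503 bases, did not follow the trend as a class. Their median log2 fold change was -0.153, and -0.221 after the correction.

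The same measure was taken in each library, as the median log2 deviation from the mean of all libraries in the longest class minus that in the shortest. It was 0.077, 0.123 and 0.035 in Ubx-WT cells and -0.206, -0.065 and -0.006 in Ubx-N51A cells. The groups did not overlap, and the GFP libraries, at -0.066, 0.025 and 0.044, overlapped both. A two-sided exact permutation test over the 6 Ubx libraries gave p = 0.1, the smallest value that 3 against 3 allow. The measure was lowest in Ubx-N51A replicate 1, which also had the fewest reads in genes (30967554) and the largest mitochondrial share (5.87%), and the difference between the classes was -0.113 without that library. The part of RNA quality or library preparation in this trend was not tested.

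**Figure D5:**
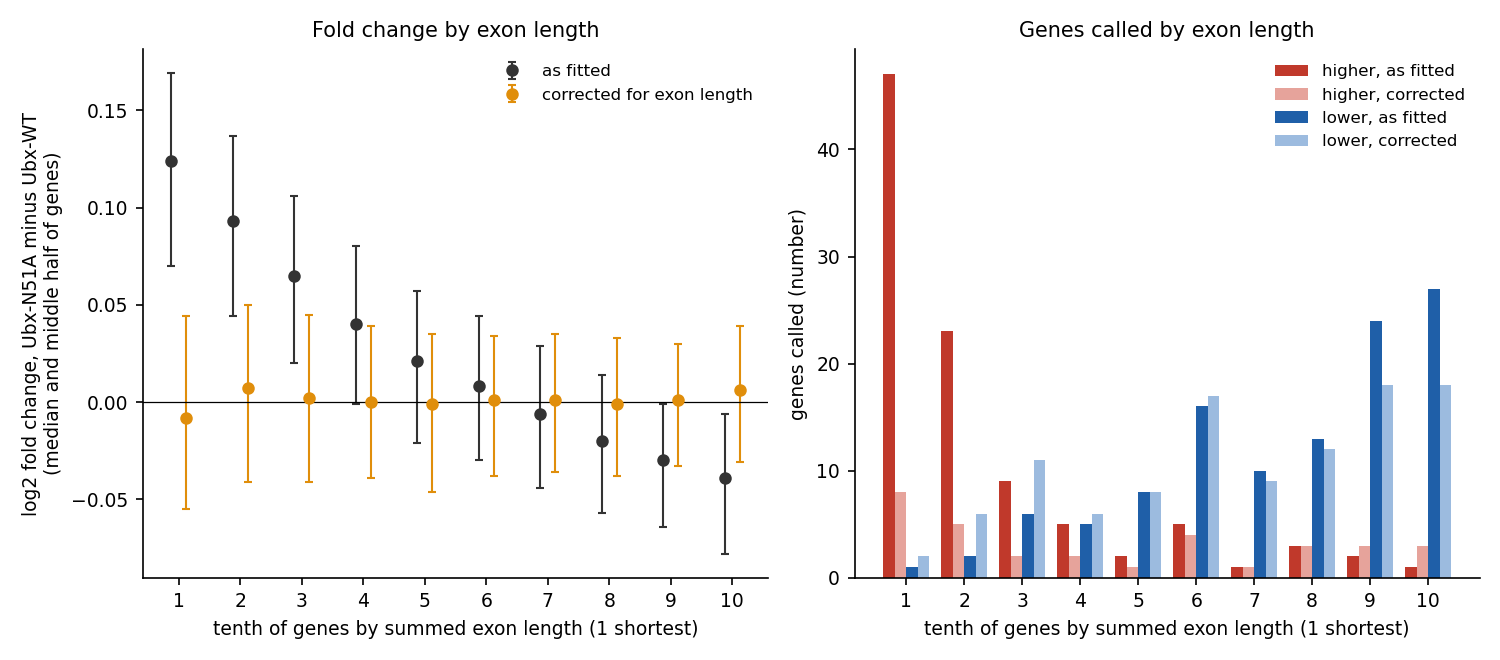
Left, median log2 fold change (Ubx-N51A minus Ubx-WT) with the quartile range of the genes in each of 10 classes by summed exon length, as fitted (black) and corrected for exon length (orange); right, the number of genes called higher (red) and lower (blue) per class, with the corrected fit in the paler colour. As fitted, the medians run from 0.124 to -0.039 and the higher calls from 47 to 1; corrected, the medians stay between -0.008 and 0.007.

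Among genes of splicing and transcription, which the title of the study touches, the calls were in few, mostly short genes. Of the 13 SR proteins, which bind exons and steer splice site choice, 0 passed by edgeR or DESeq2 (2 at an unadjusted p under 0.05; median log2 fold change 0.039). Of 20 tissue-specific splicing regulators 0 passed by either tool (2 at an unadjusted p under 0.05; median -0.016). The hnRNP gene sm had 34.2, 35.9 and 35.0 CPM in Ubx-WT cells and 31.3, 30.5 and 29.6 CPM in Ubx-N51A cells (-0.20), 1 of 16 in its list, and its call was lost after the length correction (adjusted p = 0.17) and without 4 of the 6 libraries (up to 0.123). In the core spliceosome 4 of 42 genes were higher (9.52%, against 1.23% of all genes). In the list 15 genes had all Ubx-N51A libraries above all Ubx-WT libraries and 14 had an unadjusted p under 0.05, where over all genes 22.8% did not overlap in either direction and 17% had such a p. The 4 called were the Sm and Lsm ring protein genes SmB (0.31), SmF (0.29), LSm7 (0.25) and SmE (0.20), which are short. SmB, with 109, 96.2 and 101 CPM against 137, 123 and 120 CPM, was the 1 called after the length correction, and between 1 and 7 members were called when 1 library was left out. With GFP SmB stood at 109 to 119 CPM. Of 37 genes of RNA polymerase II and elongation 1 was higher, the short subunit gene Polr2F (0.28), which was not called after the correction (adjusted p = 0.206) and lost its call without 3 of the libraries (up to 0.0879). Of 44 nucleolar genes 0 passed by edgeR (6 at an unadjusted p under 0.05; median 0.042) and 1 was higher by DESeq2, and of 48 cell cycle genes 0 passed by either tool (3 at an unadjusted p under 0.05; median 0.046).

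Among genes of at least 100 CPM the falls were modest. Sting, the receptor for cyclic dinucleotides, had 382, 455 and 426 CPM in Ubx-WT cells and 321, 312 and 315 CPM in Ubx-N51A cells (-0.41, SE 0.0676; edgeR adjusted p = 0.00229). The aldehyde dehydrogenase gene Aldh-III had 136, 120 and 128 CPM against 98.9, 102 and 104 CPM (-0.33, SE 0.0471; edgeR adjusted p = 0.000753). For Sting the Ubx-N51A libraries lay within the range of the GFP libraries (290 to 337 CPM), and for Aldh-III just above it (90.8 to 96.1 CPM). Gpo1, the mitochondrial glycerol-3-phosphate dehydrogenase, was lower as well (-0.29), as were Tep4, a thioester protein of immunity (-0.20), PolZ1, the catalytic subunit of DNA polymerase zeta (-0.18), and the ABC transporter gene Mrp4 (-0.17). Gpo1 lost its call without Ubx-N51A replicate 1 (0.0632), and Tep4, Mrp4 and PolZ1 lost theirs without 2, 3 and 5 of the 6 libraries (up to 0.0697, 0.112 and 0.111). For Gpo1, Tep4 and Mrp4 the Ubx-WT and GFP libraries overlapped, with GFP at 117 to 120, 205 to 221 and 151 to 154 CPM, and Ubx-N51A was below both.

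Lipid and cytoskeleton genes added single large falls. FASN2, 1 of the fly's fatty acid synthases, had 2.07, 2.23 and 2.48 CPM in Ubx-WT cells and 0.466, 0.618 and 0.846 CPM in Ubx-N51A cells (-1.74). Of 14 genes of fatty acid synthesis 3 were lower (21.4%, against 3.91% of all genes tested). The others, the acyl-CoA synthetase gene bgm (-0.47) and the lipin gene Lpin (-0.23), lost their calls without 4 and 3 of the libraries (up to 0.178 and 0.129). The formin gene form3 went from 3.78, 3.07 and 3.82 CPM to 0.666, 1.05 and 1.11 CPM (-1.86), and the formin gene Fhos differed by -0.27. They were the 2 of 34 actin and myosin regulators that passed (5.88%, near the 3.91% of all genes). Act87E had 0.404 to 0.459 CPM against 0.0269 to 0.0666 CPM (-2.99); actin genes share much of their sequence, so its reads are uncertain. The apoptosis inducer gene skl had 0.452 to 0.618 CPM against 0 to 0.047 CPM (-3.98).

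Most lists not yet described held 1 or 2 calls each, to be read against the 3.91% of all genes called lower and the 1.23% called higher. By edgeR 0 of 18 V-ATPase and 0 of 34 proteasome genes passed (4 in each at an unadjusted p under 0.05), and DESeq2 called 1 V-ATPase gene lower. In the Notch list the target gene E(spl)m3-HLH was higher (0.33, with 10.6, 11.5 and 11.4 CPM against 14.6, 14.2 and 13.6 CPM) and sca was lower, 2 of 20. In the ecdysone list 2 of 22 were lower, the steroid hydroxylase gene sad (-2.54, adjusted p = 0.0563 without Ubx-N51A replicate 3) and ImpE1 (-1.76, lost without 3 libraries, up to 0.11). Of 34 Polycomb, trithorax and related genes 1 was lower (2.94%, under the 3.91% of all genes), the zinc finger gene jing, with 39.5, 38.4 and 37.3 CPM against 29.3, 31.1 and 30.2 CPM (-0.34, edgeR adjusted p = 0.000403). Of 6 innexins, which form gap junctions, Inx3 was lower (-1.11, adjusted p = 0.0641 without Ubx-N51A replicate 3). Of 21 haemocyte identity genes 2 were lower, Ance, an angiotensin-converting enzyme homologue (-0.99, adjusted p = 0.0571 without Ubx-WT replicate 2), and drpr, an engulfment receptor (-0.20, lost without 5 libraries, up to 0.0837). Of 14 phagocytosis and scavenger receptor genes 2 were lower, drpr and Tep4. Of 9 cuticle proteins of the Cpr family 2 were lower (22.2%) and 0 higher, with a median of -0.746: Cpr62Bc, with 0.737, 0.658 and 1.06 CPM against 0, 0.161 and 0.157 CPM (-2.77), and Cpr51A (-0.82, adjusted p = 0.0708 without Ubx-WT replicate 3). Of 17 tetraspanin genes Tsp42El was lower (-0.33, lost without 4 libraries, up to 0.135).

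Markers of other cell types were summed in each library. The sums were 52.7 to 64.1 CPM for 6 neuronal, 0.732 to 1.5 CPM for 5 muscle and 1.9 to 3.25 CPM for 3 tracheal markers over the 6 Ubx libraries, with overlapping groups. Germline markers (3) summed to 241 to 252 CPM and glial markers (3) to 175 to 186 CPM, also with overlapping groups. For 5 fat body markers the sums were 5.49 to 7.84 CPM in Ubx-WT and 4.85 to 5.46 CPM in Ubx-N51A cells. These do not overlap, as for 22.8% of all genes tested, but the nearest values, 5.49 and 5.46 CPM, were close. All but 1 of the 5 were under 0.5 CPM in all 6 libraries. Of these markers Syn, repo, Mhc, Act57B, Act88F, Tm2, Lsp1beta, Lsp2, Fbp1, Yp1, verm and serp were under 0.5 CPM in all 6, and none was at 0 in all 6. Epithelial markers summed to 677 to 679 CPM in Ubx-WT and 630 to 671 CPM in Ubx-N51A cells, 1 of the 7 tested being lower (pck). Fbp1, a larval serum protein receptor of the fat body, had 54 reads with Ubx-WT and 2 with Ubx-N51A, a ratio of 22.8 (6.01 to 193). Of 26 glutathione S-transferase genes 2 were lower (7.69%) and 3 higher (11.5%), against 3.91% and 1.23% of all genes tested. Beside GstS1, GstE5 was lower (-1.21), and GstD3 (0.37), GstE11 (0.33) and GstE6 (0.16) were higher. None of the 3 higher ones was called after the length correction, each of these 4 calls was lost without 2 or more libraries (up to 0.145), and reads of these clustered relatives could be split between copies.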

How the data were processed

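The 9 libraries hold polyadenylated RNA of S2R+ cells. The deposited values are whole-number read counts per gene, made by the authors with HTSeq from reads aligned by STAR to the fly genome (dm6, BDGP6) after trimming with Trimmomatic 0.36, per the submitters' processing notes. Neither the strand setting nor the release of the gene models is stated. The 5 summary lines that HTSeq adds to each file were left out: reads in no gene were 1.50% to 2.27%, ambiguous reads 3.11% to 3.32% and reads without a unique position 3.26% to 5.05%. Symbols and positions came from a BDGP6 gene table and matched 17253 of 17559 genes.

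Counts of all 9 libraries were fitted with edgeR 4.0.16 in R 4.3.3 (group as the factor, filterByExpr, TMM scaling, quasi-likelihood test, Benjamini-Hochberg adjustment over 9207 genes), and Ubx-N51A was set against Ubx-WT. Calls were made at an adjusted p under 0.05, and the common biological coefficient of variation came to 5.41%. The exon length correction removed from each library a smooth curve of its log2 deviations on summed exon length. The curve was fitted on genes of at least 5 CPM. Intervals of read ratios are exact and cover counting error only. On counts simulated for 9095 genes, 60% of 1.25-fold rises, 56% of 1.25-fold falls, 84% of 2-fold rises and 88% of 2-fold falls were recovered, and 7.02% of calls were false. Apart from the planted changes, the simulation gave each gene the same mean level in all groups. It held no trend with exon length and no shift by level, so its false share does not measure that of the calls made here.

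The comparison and the gene lists were chosen with earlier results of these data known. The 58 lists hold 1226 entries by name, of which 76 had no match. Named genes are Ubx, Gli, Osi6 and Prip; the 15 largest called rises and falls of genes with a symbol, at least 2 CPM in the higher group and groups that do not overlap; the 6 largest each way at 100 CPM or more; the 2 largest each way among numbered genes; and, for each list and direction, at most 3 called members. Further called list members are named to account for a count. Nothing in the labels says that same-numbered replicates share a culture, so p-values measure the spread between these samples. Alternatives were DESeq2 1.42.0, another scaling, other filters, the 6 Ubx libraries alone, a replicate block, the length correction, leaving out the mitochondrial genome, and leaving out each Ubx library. The fits with the block used the 6 Ubx libraries alone.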

Additional observations from a re-analysis of the deposited data

How the results depend on the processing

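The count of 473 genes called was 300 (71 higher, 229 lower) with a filter of 1 CPM in 3 libraries. It was 393 with the 6 Ubx libraries alone. The replicate block was fitted on those 6 libraries too, so its counts also reflect the loss of the GFP libraries. They were 251 (27 higher, 224 lower) with the block and 241 (19 higher, 222 lower) with the block and the length correction. The higher calls numbered 197 with no filter on low counts, 62 with the 6 Ubx libraries alone and 42 with the length correction. With a Ubx library left out, the calls numbered 302 to 464, the higher calls 48 to 126 and the lower calls 242 to 338. DESeq2 called 515 genes, and 435 of the 473 were shared with it in the same direction; 247 were shared with the block, under which 0 of the 14 cytosolic ribosomal protein calls held. The replicate numbers gave no sign of pairing (correlations of same-numbered libraries -0.09, -0.000443 and 0.0408). Ubx stayed at 0.40 with no filter, where it passed (adjusted p = 0.0311), and ranged from 0.30 to 0.50 with a library left out. The difference between the longest and shortest genes was 0.013 with the length correction, 0.014 with the block added and -0.206 to -0.113 with a library left out. Of 1560 values of the named genes under these settings, 1321 kept their direction and their side of the threshold, 239 lost the call and 0 reversed. The causes were not tested, except that the length correction removes the length trend by construction. At 1 CPM the shallowest library held 31 reads, which limits the 113 lower genes under 1 CPM.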

Other observations

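Several genes fell outside the rule for named genes, mostly for a level under 2 CPM, and were chosen after their values were seen. Pvf1, a ligand of the PDGF and VEGF receptor family, had 1.93, 1.78 and 1.74 CPM in Ubx-WT cells and 0.233, 0.0807 and 0.172 CPM in Ubx-N51A cells (-3.47, edgeR adjusted p = 1.46e-06), and its GFP libraries overlapped those of Ubx-N51A at 0.114 to 0.156 CPM. The transferrin gene Tsf1 went from 2.16, 1.6 and 1.27 CPM to 0.366, 0.242 and 0.266 CPM (-2.53). In Tsf1 too the Ubx-N51A libraries overlapped the GFP libraries (0.127 to 0.332 CPM).

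A few such genes were lowest with Ubx-N51A, as described for wun2 and Tig. The homeobox gene dve had 1.02, 1.2 and 0.948 CPM in Ubx-WT cells, 0.409, 0.662 and 0.644 CPM in GFP cells and 0.166, 0.108 and 0.235 CPM in Ubx-N51A cells (-2.52 against Ubx-WT, edgeR adjusted p = 0.000138). For CG12826, a gene with only a number, the Ubx-WT and GFP libraries overlapped (1.08 to 1.3 and 0.841 to 1.72 CPM), and the Ubx-N51A libraries were below both at 0.133 to 0.282 CPM (-2.50). These 2 genes were also called against GFP (adjusted p = 0.00872 for dve and 0.00125 for CG12826 by edgeR).

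Of the 10 genes at least 2-fold higher with Ubx-N51A, pain and Idgf4 stood under 2 CPM. The TRP channel gene pain had 0.333, 0.439 and 0.408 CPM in Ubx-WT cells and 1.26, 1.24 and 1.47 CPM in Ubx-N51A cells (1.75, edgeR adjusted p = 0.000384). Idgf4, a chitinase-like growth factor gene, had 0.19, 0.259 and 0.306 CPM against 0.499, 0.887 and 0.861 CPM (1.57, edgeR adjusted p = 0.00381). In both, the Ubx-WT libraries overlapped the GFP libraries, which ranged from 0.229 to 0.5 CPM for pain and from 0.215 to 0.28 CPM for Idgf4.

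Some called genes were next to each other among the genes tested. The pair elB and noc lie on 2L between 14390628 and 14494019 and were both lower, as were rk and bgm on 2L, Nep1 and Ca-alpha1T on X, and mthl9 and mthl10 on 3L. The run of eve and Pka-R2 on 2R went on to a noncoding RNA gene. Pka-R2, a regulatory subunit of protein kinase A, had 74.2, 78.1 and 72.2 CPM in Ubx-WT cells and 52.1, 51.7 and 48.8 CPM in Ubx-N51A cells (-0.56, edgeR adjusted p = 1.07e-05). No count of such runs is given as a result, since it was not tested.

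By chromosome arm the share of tested genes called lower was 3.32% on 2L, 5.01% on 2R, 3.93% on 3L, 3.56% on 3R and 4.17% on X. By level it was 9.02% under 1 CPM, 9.19% from 1 to under 5 CPM, 2.97% from 5 to under 50 CPM and 1.02% from 50 to under 500 CPM. In the same order, the median log2 fold change of all genes in the class was -0.153, -0.051, 0.030 and 0.006. After the length correction it was -0.221, -0.104, -0.014 and 0.005. The cause of this shift of low-level genes was not tested. From 500 CPM upward 0 of 342 genes were called lower and 15 higher, and after the length correction 0 were lower and 4 higher. Genes with an annotated intron were called lower in 4.29% (340 of 7925) and genes without one in 1.56% (17 of 1093). Their median exon lengths were 2180 and 1105 bases. After the length correction the lower calls numbered 325 and 21.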
